A study of Mus musculus with 8 samples.

Results

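The *Slc15* genes encode the proton-coupled oligopeptide transporters, and 4 of them were followed here by symbol in the distal colon of mice with and without *Hsf1*: *Slc15a1*, *Slc15a2*, *Slc15a3* and *Slc15a4*. They were 4 of the 15859 genes in the count table. All 4 were among the 14371 genes kept for testing, and a test is given for 3 of them. The family was selected on the measured counts of *Slc15a2*, which moved in opposite directions in the 2 genotypes of these same samples. The levels of that gene are therefore given as a description, with no test. The other 3 members were taken as the rest of its family, with earlier results of these data known.

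Polyadenylated RNA was sequenced from 8 male mice, 2 in each of 4 groups, to compare the response of the colon to AOM-DSS with and without *Hsf1*. HSF1 is the main transcription factor of the heat shock response. The groups were untreated WT mice (day 0), untreated *Hsf1* null mice (day 0), AOM-DSS-treated WT mice (day 15) and AOM-DSS-treated *Hsf1* null mice (day 15). All were on a mixed BALB/c x 129SvEV background and labelled as 10 weeks old. Treated mice received the carcinogen azoxymethane (AOM) once at 10 mg/kg when 8 weeks old, followed from day 7 by 5 days of 1.5% dextran sulfate sodium (DSS), an irritant of the colon lining, in the drinking water. By their titles the treated samples are of day 15, whereas the protocol in the sample labels ends when DSS was withdrawn. The *Hsf1* deletion was present in every cell type, so no value here belongs to the loss of *Hsf1* in one of them. Each group held only 2 mice, a size at which an exact test of a single value cannot go below 0.333.

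*Slc15a1* encodes PEPT1, which carries dipeptides and tripeptides across the brush border of the gut epithelium on an inward flow of protons. *Slc15a2* encodes PEPT2, a transporter of the same substrates with higher affinity and lower capacity, best known from the kidney tubule and the choroid plexus and described in the gut wall in glia. *Slc15a3* (PHT2) and *Slc15a4* (PHT1) encode transporters of histidine and peptides in the membrane of endosomes and lysosomes, mostly of immune cells. Through them bacterial muropeptides can leave the lumen to reach the NOD receptors, and PHT1 also anchors signalling from endosomal Toll-like receptors.

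On GRCm38, with GENCODE M21 as the annotation, *Slc15a1* (ENSMUSG00000025557) lay on chromosome 14 from 121459621 to 121505252 and *Slc15a2* (ENSMUSG00000022899) on chromosome 16 from 36750177 to 36784962. *Slc15a4* (ENSMUSG00000029416) lay on chromosome 5 from 127595664 to 127632897, and all 3 were on the minus strand. *Slc15a3* (ENSMUSG00000024737) lay on the plus strand of chromosome 19 from 10839727 to 10859362. RefSeq start sites on GRCm38.p6 were found for 3 of the 4 members. The 250 bases before the start site are shown for *Slc15a2*, the member whose RNA ran from 0 to 31.2 CPM (counts scaled to library size) in the same tissue, and for *Slc15a1*, its partner at the plasma membrane. Both are written 5′ to 3′ on the strand of the gene, chr16:36784963-36785212 and chr14:121505255-121505504, and capitals mark the motifs that were found.
Slc15a2: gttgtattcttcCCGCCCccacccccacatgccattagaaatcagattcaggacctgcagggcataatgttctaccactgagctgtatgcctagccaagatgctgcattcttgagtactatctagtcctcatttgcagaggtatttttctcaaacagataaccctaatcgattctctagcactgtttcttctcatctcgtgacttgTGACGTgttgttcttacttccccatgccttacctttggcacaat
Slc15a1: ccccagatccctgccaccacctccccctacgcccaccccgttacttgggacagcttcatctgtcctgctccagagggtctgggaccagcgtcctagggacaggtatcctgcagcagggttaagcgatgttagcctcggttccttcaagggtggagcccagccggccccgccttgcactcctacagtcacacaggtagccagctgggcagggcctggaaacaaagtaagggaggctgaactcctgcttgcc

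The window of 300 bases around each start site (250 before it and 50 after it) was searched for pairs of heat shock units (GAANNTTC and TTCNNGAA), the AP-1 site (TGANTCA), the cyclic AMP response site (TGACGT or its reverse complement), the GC box (GGGCGG or its reverse complement), the CDX site (TTTATG or its reverse complement) and the TATA box (TATAAA). Each was looked for on both strands except the TATA box, which was looked for on the strand of the gene. The *Slc15a2* window held 1 GC box at position -238 and 1 cyclic AMP response site at position -44 from the start site, and these did not overlap. A GC box was found in 35.7% of the 32851 mouse windows of this length and the cyclic AMP response site in 7.51%. No heat shock pair was found in the windows of *Slc15a1*, *Slc15a2* or *Slc15a4*, and 7.86% (GAANNTTC) and 8.52% (TTCNNGAA) of all windows held one. The *Slc15a4* window (chr5:127617343-127617642) lay inside the gene as GENCODE places it, which on the minus strand begins at 127632897. Only the RefSeq start site of *Slc15a4* was thus searched. The window of *Slc15a1* held none of the motifs searched. The windows of *Slc15a1* and *Slc15a4* were rich in G and C (62.7% and 64.0% of bases) and that of *Slc15a2* was not (46.3%), against a median of 52.7% over all windows.

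Total counts were between 2553348 and 12440257 per mouse. The 2 smallest libraries, with 2553348 and 2675976 counts, were mouse 2 of WT day 0 and mouse 2 of *Hsf1* null day 0. The calls of *Slc15a1* and *Slc15a3*, and the counts of all called genes in the comparisons they come from, are given without them as well. CPM values use library sizes scaled by TMM. At day 0, *Hsf1* itself was at 40.5 and 36.5 CPM in WT mice and 13.96 and 11.86 CPM in null mice. At day 15 the pairs were at 50.4 and 45.9 CPM (WT) and 13.5 and 9.10 CPM (null), so each null mouse lay below each WT mouse, as its label says. Reads of *Hsf1* were still counted in each null mouse (170 and 33 at day 0, 87 and 68 at day 15). Genes were called differentially expressed at an adjusted p under 0.05 in edgeR's quasi-likelihood test with an absolute log2 fold change above 1, the test behind each adjusted p given here. The 2 comparisons of day and the 2 of genotype use the same 4 groups and so share mice.

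*Slc15a2* RNA was nearly absent from 4 of the 8 colons and clearly present in the other 4, and the groups that held it were opposite by genotype: *Hsf1* null mice before treatment and WT mice after it. In WT mice at day 0, 7 reads of *Slc15a2* were counted in mouse 1 and 0 in mouse 2 (0.686 and 0 CPM), and a count of 0 in the second library allows up to 1.19 CPM. In *Hsf1* null mice at day 0, the counts were 380 and 53 (31.2 and 19.1 CPM). The deep and the shallow null library thus both held the RNA, and neither WT library of that day came near them.

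After AOM-DSS the order of the genotypes was turned round. In WT mice at day 15 the counts were 131 and 149 (11.4 and 15.7 CPM), while in *Hsf1* null mice they were 1 and 3 (0.155 and 0.401 CPM). No mouse of a group with the RNA overlapped with a mouse of a group without it, and the lowest of the former, at 11.4 CPM, lay far above the highest of the latter, at 0.686 CPM. Because *Slc15a2* was chosen for this pattern, the separation describes these 8 mice and tests nothing.

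Summed over the 2 mice of each group and scaled to library size, *Slc15a2* was 24.3 times as high in WT mice at day 15 as at day 0 (280 against 7 counts; exact binomial 95% interval 11.6 to 60.9). In *Hsf1* null mice it was 101 times as high at day 0 as at day 15 (433 against 4 counts; interval 39.1 to 371). These intervals cover counting error only and not the spread between mice. *Slc15a2* was chosen for these same counts, so no interval given for it is a test. Between genotypes, the null mice held 52.6 times the WT level at day 0 (25.3 to 132), and the WT mice held 46.5 times the null level at day 15 (18 to 172).

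In the model of all genes, the log2 fold change of *Slc15a2* from day 0 to day 15 was 4.69 ± 0.74 (SE) in WT and -6.40 ± 0.84 in *Hsf1* null mice, n = 2 mice per group. The null change was the second most negative log2 fold change of the 14371 genes, and the difference between the genotypes at day 0, 5.60 ± 0.74, ranked 3 from the highest. At day 15 the difference was -5.49 ± 0.84. The null change minus the WT change came to -11.09 ± 1.12, the lowest value of all tested genes, with the WT change resting on 7 reads at day 0. Without mouse 1 of WT day 0, which held those reads, the fitted WT change was 9.67 and the null-minus-WT change -16.06, values set by the prior count in a group at 0 and not bounds. *Slc15a2* was chosen for its opposite changes in these same counts, so its ranks among all genes describe it and test nothing.

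**Figure D1:**
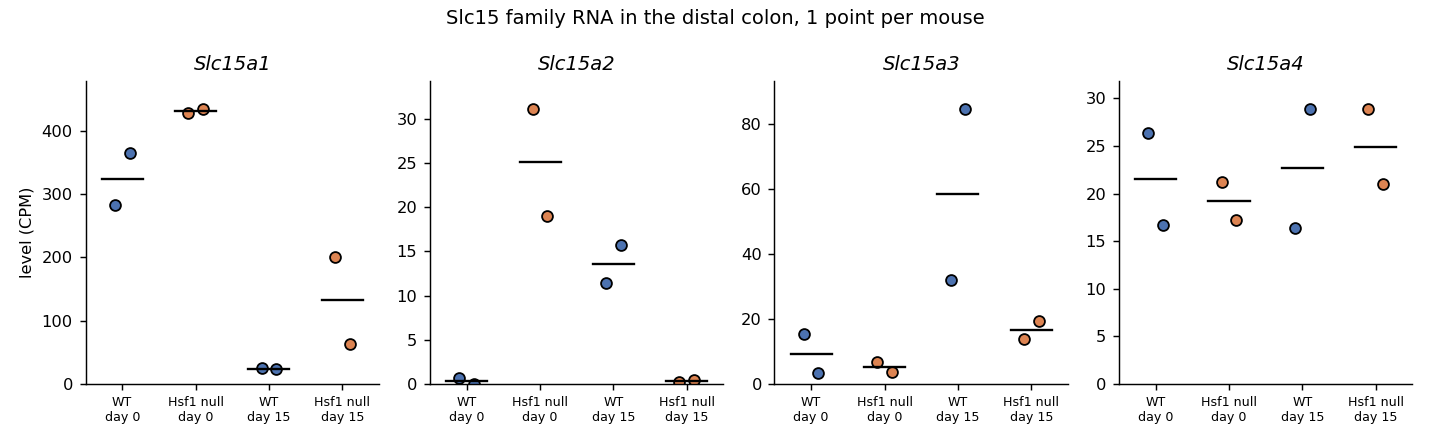
Level of each *Slc15* member in CPM (vertical axis, linear, from 0, a separate scale for each gene) in the 4 groups; each point is 1 mouse (blue, WT; orange, *Hsf1* null) and the line is the group mean. *Slc15a2* stood above 11 CPM in the null mice at day 0 and the WT mice at day 15 and below 1 CPM in the other 4, *Slc15a1* was lowest in the WT mice at day 15, and the groups of *Slc15a4* overlapped.

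*Slc15a1* fell with treatment in both genotypes, and at day 15 it was higher in *Hsf1* null than in WT mice. At day 0 it stood at 283 and 366 CPM in WT and at 428 and 435 CPM in null mice. At day 15 it stood at 25.0 and 23.1 CPM in WT and at 201 and 63.5 CPM in null mice. The WT mice at day 15 thus formed a tight pair at the bottom, and the null mice lay between them and every untreated mouse, apart from each other by more than the mice of any other group.

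In WT mice the fall was 13.5-fold (log2 fold change -3.75 ± 0.43, edgeR adjusted p = 0.00597), and in *Hsf1* null mice it was 3.27-fold (-1.71 ± 0.43, edgeR adjusted p = 0.0353). Of the 3 members with a test, 2 were called in the WT comparison (1 lower, 1 higher), where 7.74% of all tested genes were called (4.27% lower, 3.47% higher). In the null comparison 1 was called, as lower, where 11.8% of genes were (6.48% lower, 5.3% higher). The WT change ranked 65 from the lowest of 14371 genes. The change in WT mice kept its call without any single mouse, and with both shallow day 0 libraries left out the log2 fold change was -3.56 with an edgeR adjusted p of 0.0989. The null change is less firm: its edgeR adjusted p was 0.0774 without mouse 1 of null day 0, 0.199 without mouse 2 of null day 0, 0.0646 without mouse 2 of null day 15 (log2 fold change -1.10) and 0.279 without both shallow libraries.

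Between genotypes, *Slc15a1* did not pass the test at day 0 (null minus WT 0.41 ± 0.43, edgeR adjusted p = 0.888), where 0 genes in all were called (0% of those tested), 904 had an unadjusted p under 0.05, and DESeq2 called 18. *Hsf1* itself, at means of 38.5 CPM in WT and 12.9 CPM in null mice, was not called by edgeR at day 0 either. At day 15 *Slc15a1* was 5.50-fold higher in the null mice (2.46 ± 0.43, edgeR adjusted p = 0.0274), the only called member of the 3 in a comparison where 3.17% of genes were called (1.91% higher, 1.25% lower). That call was lost on leaving out any of 5 single mice. The edgeR adjusted p was 0.0671 without mouse 1 and 0.0663 without mouse 2 of null day 0, and 0.0666 without mouse 1 and 0.143 without mouse 2 of WT day 15. Without mouse 1 of null day 15 it was 0.118, with a log2 fold change of 1.41. With only the 4 mice at day 15 in the model it was 0.0973, and without both shallow day 0 libraries it was 0.094. The difference between the 2 changes, 2.04 ± 0.61 with a 95% interval of 0.685 to 3.403, did not pass the test (edgeR adjusted p = 0.43), in a contrast that called 0.00696% of genes. Without mouse 2 of null day 15, the lower of the pair, that difference was 2.65 and passed (edgeR adjusted p = 0.0257), so the mouse decides the call.

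*Slc15a3*, the lysosomal transporter PHT2, rose with treatment in WT mice. Untreated WT mice held 15.2 and 3.18 CPM of it and untreated null mice 6.73 and 3.59 CPM. Treated WT mice held 31.9 and 84.7 CPM and treated null mice 13.6 and 19.3 CPM. The pairs at day 0 overlapped between genotypes, whereas at day 15 both null mice lay below both WT mice, and the WT pair were far apart in each state.

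The WT rise was 5.79-fold (2.53 ± 0.63, edgeR adjusted p = 0.041). Its call was lost without mouse 2 of WT day 0 (log2 fold change 1.95, edgeR adjusted p = 0.179), without mouse 2 of WT day 15 (1.68, 0.24), without either null mouse at day 0 (0.0669 and 0.0671) and without both shallow libraries (1.94, 0.227). It was also lost with only the 4 WT mice in the model (2.52, edgeR adjusted p = 0.089). In *Hsf1* null mice the log2 fold change was 1.58 ± 0.66, which did not pass (edgeR adjusted p = 0.129). The null-minus-WT difference was -0.87 ± 0.68 at day 0 (edgeR adjusted p = 0.848) and -1.82 ± 0.60 at day 15 (edgeR adjusted p = 0.12), and the difference between the changes was -0.95 with a 95% interval of -2.98 to 1.07 (edgeR adjusted p = 0.788). DESeq2 called both the null change (1.62, adjusted p = 0.0403) and the difference between genotypes at day 15 (-1.82, adjusted p = 0.0209), so for this gene the tool decides.

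*Slc15a4*, the lysosomal transporter PHT1, was called in none of the comparisons. Its level was 26.4 and 16.7 CPM in WT mice at day 0, 21.2 and 17.3 CPM in null mice at day 0, 16.3 and 28.9 CPM in WT mice at day 15, and 28.8 and 21.0 CPM in null mice at day 15. The 4 groups overlapped, and the mice of 1 group differed by up to 1.77-fold. The log2 change from day 0 to day 15 was 0.05 (95% interval -0.79 to 0.88; edgeR adjusted p = 0.949) in WT and 0.36 (-0.48 to 1.20; edgeR adjusted p = 0.54) in null mice. The null-minus-WT difference was -0.18 (-1.03 to 0.68; edgeR adjusted p = 0.954) at day 0 and 0.14 (-0.68 to 0.96; edgeR adjusted p = 0.857) at day 15. The intervals of the WT change and of the day 15 difference exclude a 2-fold change in either direction, that of the null change does not exclude a 2-fold increase, and that of the day 0 difference does not exclude a 2-fold decrease.

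In the WT comparison of days the groups did not overlap in 3 of the 4 members, against 62.5% of all tested genes. In the null comparison this held for 3 of 4, against 61.3%. Between genotypes it held for 2 of 4 at day 0, against 37.1%, and for 3 of 4 at day 15, against 54.8%. With 2 mice a group such separation was common, and *Slc15a2* is counted in each of these numbers.

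**Figure D2:**
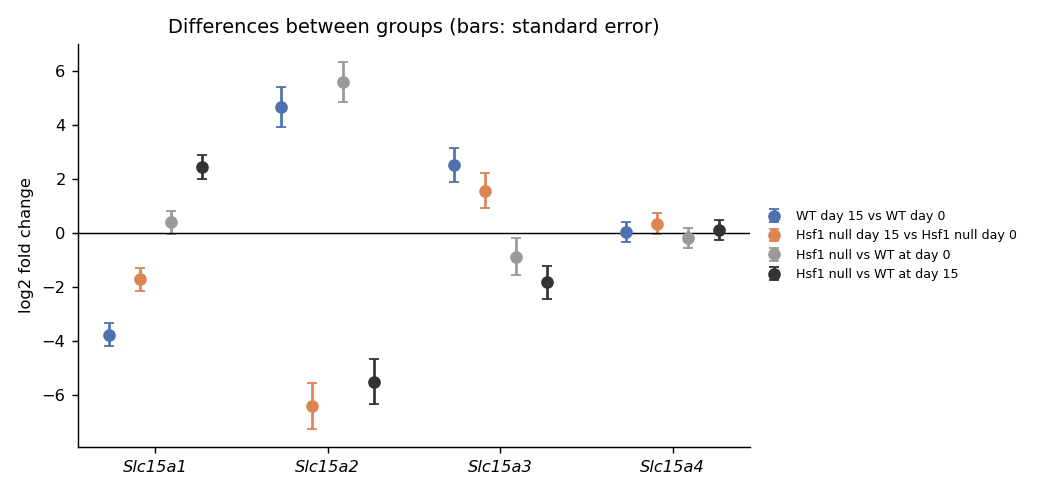
Log2 fold change of each *Slc15* member (vertical axis) in the 4 comparisons of groups; points are the fitted values and bars 1 standard error, from 2 mice per group. The 2 changes with treatment had opposite signs for *Slc15a2* (4.69 in WT, -6.40 in null) and the same sign for the other members, and the values of *Slc15a4* all lay between -0.18 and 0.36.

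Set per kilobase of merged exons (RPKM), so that members can be compared with each other, *Slc15a1* made up most of the family's RNA in every colon but those of WT mice at day 15. Its level was 66.4 ± 11.9 RPKM (SD, n = 2) in WT mice and 88.4 ± 1.01 in null mice at day 0, and *Slc15a4* followed at 4.05 ± 1.29 and 3.62 ± 0.53. *Slc15a2* stood last in untreated WT mice at 0.047 ± 0.066 RPKM. In untreated null mice it stood at 3.41 ± 1.17 RPKM, level with *Slc15a4* within the spread between mice and above *Slc15a3* at 0.94 ± 0.40.

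In WT mice at day 15 the order by mean RPKM was *Slc15a3* (10.6 ± 6.80), *Slc15a1* (4.92 ± 0.27), *Slc15a4* (4.26 ± 1.68) and *Slc15a2* (1.84 ± 0.42). *Slc15a1* and *Slc15a4* did not differ there beyond their spread, and they changed places when each gene was set per kilobase of its longest transcript; elsewhere the order stayed as it was. In null mice at day 15 the order was *Slc15a1* (27.1 ± 19.9), *Slc15a4* (4.69 ± 1.05), *Slc15a3* (3.0 ± 0.72) and *Slc15a2* (0.038 ± 0.024). As a share of the summed RPKM of the 4 members in each mouse, *Slc15a1* ran from 88.1% to 95.3% in the untreated mice, was 83.8% and 63.4% in null mice at day 15, and was 32.9% and 17.1% in WT mice at day 15. *Slc15a3* reached 37.4% and 55.6% in those last 2 mice and *Slc15a2* reached 9.96% and 7.70%, its highest shares, although its level in RPKM was higher in the untreated null mice, where it took 4.36% and 2.71%.

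**Figure D3:**
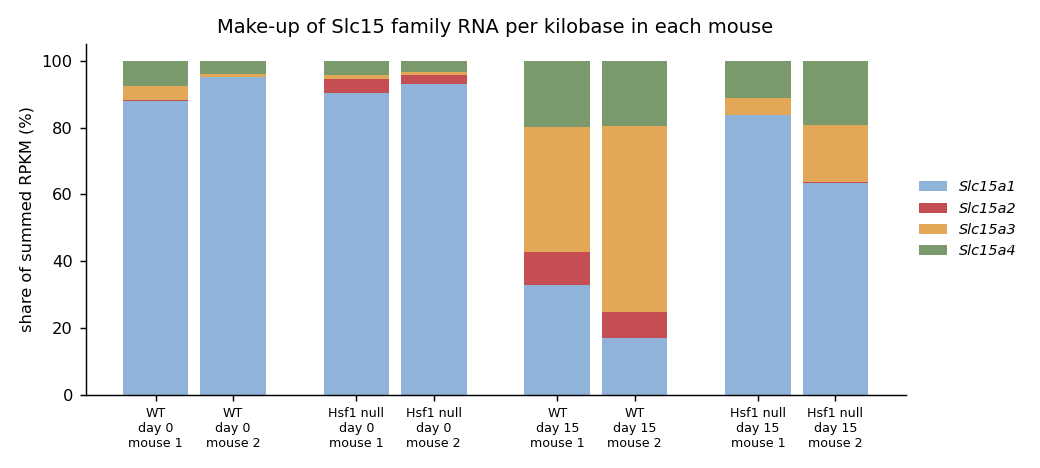
Share of each *Slc15* member in the summed RPKM of the family (vertical axis, percent) in each of the 8 mice; each bar is 1 mouse and the colours are the members. *Slc15a1* took 63.4% or more of the bar in 6 mice and 32.9% or less in the 2 WT mice at day 15, where *Slc15a3* took 37.4% and 55.6%.

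Across the 8 mice the members did not move as 1 family. Pearson's r of log2 CPM was -0.90 between *Slc15a1* and *Slc15a3* and 0.54 between *Slc15a3* and *Slc15a4*, and for the pairs of *Slc15a2* with *Slc15a1*, *Slc15a3* and *Slc15a4* it was -0.21, 0.23 and -0.12. Spearman's rho of the pairs with *Slc15a1* and *Slc15a4* had the other sign (0.21 and 0.095), so no direction is read from them. These values describe 8 mice that share 4 groups, and no test is attached to them.

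The genes whose levels followed *Slc15a2* most closely over the same 8 mice were few and scattered. The highest Pearson r, 0.93, belonged to *Nfe2l3*, a transcription factor of the cap'n'collar family. The 9 that came after were *Ankdd1b*, *Nlgn3* (a synaptic adhesion protein), *Ap1s2* (a subunit of a clathrin adaptor), *Ttc39c*, *Zfp850*, *Sema6d* (a semaphorin), *Rgs9bp*, *St6galnac5* (a sialyltransferase) and *Chd1* (a chromatin remodeller), down to an r of 0.86. They lay on chromosomes 2, 3, 6, 7, 13, 17, 18 and X, and none on chromosome 16 with *Slc15a2*. Untreated mice held 1.86 and 0.794 CPM (WT) and 6.16 and 7.55 CPM (null) of *Nfe2l3*. Treated mice held 2.35 and 3.48 CPM (WT) and 0.931 and 1.47 CPM (null). It had the order of *Slc15a2* in a much smaller range. Its 0.794 CPM in mouse 2 of WT day 0 lay under the 1.19 CPM that a count of 0 allows in that library. *Nlgn3*, *Rgs9bp* and *St6galnac5* were also low, at 0.62 to 2.88, 0.27 to 1.48 and 0 to 2.16 CPM over the 8 mice. Only 3 genes passed an r of 0.9 with *Slc15a2*, and 2 of the 10 named were still among the 10 most alike by Spearman's rho.

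The other plasma membrane member had many genes of like pattern. For *Slc15a1*, 517 genes had an r above 0.9, led by *Sfxn5* (a mitochondrial carrier), *Bex4*, *Fam134b* (a receptor for turnover of the endoplasmic reticulum), *Scin* (an actin-severing protein) and *Dpm1* (a subunit of dolichol phosphate mannose synthase), with r from 0.995 to 0.993. For *Slc15a3*, 497 genes had an r above 0.9, with *Fermt3*, *Pik3cd*, *Plcg2* and *Il16* among the 5 highest, at r from 0.993 to 0.989. *Fermt3* (kindlin-3), *Pik3cd* (a catalytic subunit of phosphoinositide 3-kinase), *Plcg2* (a phospholipase) and *Il16* are expressed chiefly in blood cells. For *Slc15a4* only 7 genes had an r above 0.9, and the leading 5 were *Mx2*, *Ifit1*, *Isg15*, *Sp140* and *Oasl2*, with r from 0.956 to 0.911, known as genes induced by interferon. *Ifit1* differed between mice of 1 group as *Slc15a4* did: it was at 25.3 and 5.16 CPM in WT mice at day 0 and at 2.44 and 26.5 CPM in WT mice at day 15. By Spearman's rho, 0 of the 5 highest for *Slc15a1*, 2 of the 5 for *Slc15a3* and 2 of the 5 for *Slc15a4* stayed among the 5 most alike.

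The genes beside *Slc15a2* did not share its pattern. *Ildr1*, a tight junction protein gene 23.4 kb away at lower coordinates, ran from 77.6 to 202 CPM over the 8 mice, with log2 fold changes between -0.40 and -0.62 in the 4 comparisons, none called. *Eaf2*, an elongation factor partner 7.9 kb away at higher coordinates, was called in none. Its levels were 2.06 and 1.59 CPM (WT) and 1.31 and 1.80 CPM (null) at day 0, and 5.22 and 4.96 CPM (WT) and 1.40 and 4.01 CPM (null) at day 15. Inside *Slc15a2*, GENCODE places the processed pseudogene *Gm8425*, which shares no exonic base with it.

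2 members overlap other genes in their exons. *Slc15a3* shares exonic bases with *Tmem132a* on the opposite strand, which held 9.80 and 2.78 CPM (WT) and 3.04 and 3.95 CPM (null) at day 0. At day 15 it held 12.8 and 10.1 CPM (WT) and 9.62 and 12.2 CPM (null). Its log2 fold change was 0.76 in WT mice and 1.68 in null mice, neither called (edgeR adjusted p = 0.373 and 0.0719). *Slc15a4* shares exonic bases with *Gm43474* and overlaps *Glt1d1* without a shared exon. The sources used here do not state whether counting used the strand, so reads of these overlapping parts cannot be told apart.

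Of the 92 tested genes in 7 lists around peptide uptake and sensing, 12 were called in WT mice at day 15 against day 0 (13.0%, where 7.74% of all tested genes were). In null mice 15 were called (16.3%, against 11.8%), and between genotypes at day 15 there were 4 (4.35%, against 3.17%). Between genotypes at day 0, and in the difference between the 2 changes, 0 were called. No single list had more than 3 genes called in 1 direction. These counts rest on single mice. In the whole table, the 1112 genes called in WT mice became 486 without mouse 1 and 122 without mouse 2 of WT day 0, and 113 without mouse 2 of WT day 15. The 1692 called in null mice became 0 without mouse 2 of null day 0, 483 without mouse 1 of null day 15 and 348 without mouse 2 of null day 15. Without both shallow day 0 libraries, 4 were called in WT mice, 0 in null mice and 18 between genotypes at day 15, with 1 untreated mouse of each genotype left in the model. Between genotypes at day 15, the 455 genes called in the whole table became 12 without mouse 1 or mouse 2 of null day 0, 19 without mouse 2 of WT day 15, 30 without mouse 1 and 871 without mouse 2 of null day 15, and 6 with only the day 15 mice in the model. The calls of single listed genes given here come from the model of all 8 mice and have that limit. Among 12 tested brush-border peptidases, which make the small peptides that PEPT1 carries, 2 fell in WT mice at day 15: *Mep1a* (a meprin; log2 fold change -3.11, edgeR adjusted p = 0.0103) and *Naaladl1* (-3.30, edgeR adjusted p = 0.0326). *Mep1a* stood at 151 and 181 CPM (WT) and 205 and 194 CPM (null) at day 0, and at 20.8 and 17.5 CPM (WT) and 182 and 52.3 CPM (null) at day 15. Its groups had the order of *Slc15a1*, and it was higher in null than in WT mice at day 15 (2.61, edgeR adjusted p = 0.0271). In null mice *Enpep* (-1.83, edgeR adjusted p = 0.0422) and *Dpp4* (-1.14, edgeR adjusted p = 0.0307) fell, and *Dpep1* (1.28, edgeR adjusted p = 0.037) and *Ggt1* (1.90, edgeR adjusted p = 0.0478) rose. The median log2 fold change of the list was -0.64 in WT and -0.60 in null mice, where that of all tested genes was 0.0046 and 0.052.

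Among 12 cytosolic peptidases, which cut peptides after uptake, 0 were called in WT mice and 1 in null mice, *Tpp2* (tripeptidyl peptidase), which fell by 1.54 on the log2 scale (edgeR adjusted p = 0.0179). The summed level of the list was 906 and 911 CPM (WT) and 907 and 787 CPM (null) at day 0, and 1280 and 1260 CPM (WT) and 1150 and 1070 CPM (null) at day 15. It was thus higher in each treated mouse than in each untreated one, and the list medians were 0.45 in WT and 0.37 in null mice. Of 17 tested transporters of amino acids, 3 fell and 1 rose in WT mice. *Slc6a14* (-2.59, edgeR adjusted p = 0.00654), the glutamate transporter *Slc1a1* (-2.03, edgeR adjusted p = 0.0155) and the proton-coupled *Slc36a1* (-1.90, edgeR adjusted p = 0.0328) fell, and *Slc43a2* rose (1.34, edgeR adjusted p = 0.0407). In null mice *Slc6a14* (-2.21, edgeR adjusted p = 0.0134) and *Slc6a20a* (-2.65, edgeR adjusted p = 0.0303) fell, and *Slc6a20a* was also lower in null than in WT mice at day 15 (-3.46, edgeR adjusted p = 0.0252). At day 15 its level was 6.61 and 4.86 CPM (WT) and 0.62 and 0.401 CPM (null). Like *Slc15a2* it was nearly lost in the treated null mice, but at day 0 both genotypes held it, at 4.21 and 7.15 CPM (WT) and 3.04 and 3.59 CPM (null). The medians over the transporters were 0.096 in WT and -0.20 in null mice.

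Of 11 tested exchangers and pumps that set the proton and sodium gradients for uptake, 2 fell in WT mice, the sodium-proton exchanger *Slc9a2* (-2.02, edgeR adjusted p = 0.0197) and the proton pump *Atp12a* (-1.68, edgeR adjusted p = 0.0285). Treated WT mice held 168 and 88.8 CPM of *Atp12a* and treated null mice 766 and 496 CPM, a higher level (2.30, edgeR adjusted p = 0.0217). In null mice *Atp1b1* fell (-1.29, edgeR adjusted p = 0.0343) and *Atp6v0d1*, a subunit of the vacuolar proton pump, rose (1.07, edgeR adjusted p = 0.0436). The medians were -0.61 in WT and -0.12 in null mice. Among 8 transcription factors described upstream of *Slc15a1*, *Ppara* (-2.50, edgeR adjusted p = 0.0301) and *Klf4* (-2.36, edgeR adjusted p = 0.0146) fell in WT mice, and in null mice *Nfe2l2* fell (-2.12, edgeR adjusted p = 0.0199) and *Cdx2* rose (1.22, edgeR adjusted p = 0.0325). *Ppara* was higher in null than in WT mice at day 15 (2.57, edgeR adjusted p = 0.0442). The treated WT mice held 4.44 and 1.48 CPM of it, the treated null mice 25.0 and 10.7 CPM. The medians of the 8 factors were -0.81 in WT and -0.17 in null mice.

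Around the endolysosomal members, 0 of 18 tested genes of NOD1 and NOD2 sensing were called in WT mice, where 7.74% of all tested genes were, and nothing is read from so small a count. *Nod2*, the receptor for muramyl dipeptide, stood at 2.65 and 3.57 CPM in WT mice at day 0 and 7.22 and 21.7 CPM at day 15 (2.25, edgeR adjusted p = 0.0568), a change that did not pass and that is named after its values were seen. In null mice *Xiap* (-1.70, edgeR adjusted p = 0.0156) and *Tab3* (-1.17, edgeR adjusted p = 0.0452) fell and *Rbck1* rose (1.05, edgeR adjusted p = 0.0321), with list medians of 0.18 in WT and -0.061 in null mice. Of 14 tested genes of endosomal Toll-like receptor signalling, *Unc93b1*, which brings these receptors to the endosome, rose in both genotypes (1.56, edgeR adjusted p = 0.0209 in WT; 1.50, edgeR adjusted p = 0.0211 in null mice), and the adaptor *Myd88* rose in WT mice (1.37, edgeR adjusted p = 0.0328). Levels of *Unc93b1* were 84.2 and 50 CPM (WT) and 50.8 and 39.2 CPM (null) at day 0. They were 158 and 240 CPM (WT) and 127 and 129 CPM (null) at day 15. The medians of this list were 0.49 in WT and 0.47 in null mice. Between genotypes at day 15 the 7 list medians ran from -0.55 (Toll-like receptor signalling) to 0.48 (exchangers and pumps), against -0.035 for all tested genes.

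**Figure D4:**
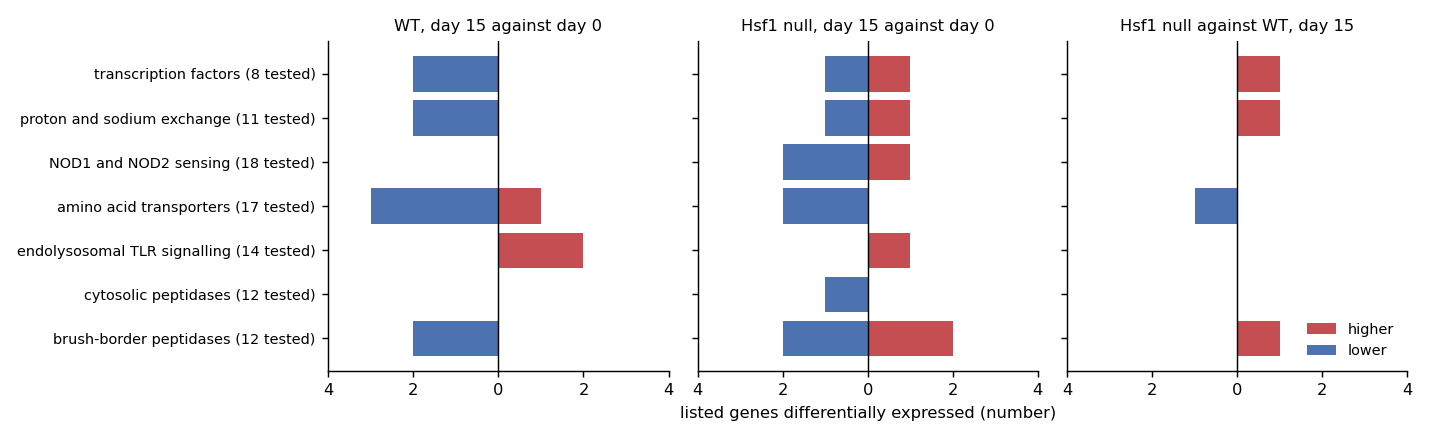
Number of genes called lower (blue, to the left) and higher (red, to the right) in each of 7 lists of genes around peptide uptake and endolysosomal sensing (horizontal axis, number of genes), by comparison; the number tested is beside each list. No list had more than 3 genes called in 1 direction, and the comparison of genotypes at day 0, with 0 called in each list, is not drawn.

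The samples are pieces of whole colon, in which fewer cells of a type and less RNA per cell cannot be told apart, and several marker lists moved with the members. Markers of colonocytes and goblet cells were high in each mouse, with summed levels from 4330 to 13400 CPM over 10 genes and from 7230 to 39800 CPM over 6 genes. Those of small intestine enterocytes were low, from 9.08 to 62.5 CPM over 5 genes, as the label of distal colon has it. Beside *Slc15a1*, the summed colonocyte markers were at 6540 and 10700 CPM (WT) and 13400 and 13000 CPM (null) at day 0. At day 15 they were at 4330 and 6410 CPM (WT) and 12400 and 7430 CPM (null). Of the 10, *Slc26a3* (-3.63, edgeR adjusted p = 0.00654) and *Aqp8* (-3.39, edgeR adjusted p = 0.0151) fell in WT mice, *Slc26a3* (-3.27, edgeR adjusted p = 0.0126) and *Car1* (-1.88, edgeR adjusted p = 0.0377) fell in null mice, and *Aqp8* was higher in null than in WT mice at day 15 (3.93, edgeR adjusted p = 0.021). The most abundant of them, *Car1* and *Ceacam1*, were not called in WT mice. With treatment, 8 of the 10 colonocyte markers were not called in either genotype's comparison. The list medians were -0.735 in WT and 0.213 in null mice, so the list as a whole did not fall in null mice. The summed small intestine markers, led by *Rbp2* and *Fabp6*, were at 20.8 and 27.4 CPM (WT) and 44.1 and 62.5 CPM (null) at day 0, and at 15.7 and 9.08 CPM (WT) and 38 and 14 CPM (null) at day 15. They were highest in untreated null and lowest in treated WT mice, as *Slc15a1* was. Of the 3 of them that were tested, *Fabp6* was higher in null than in WT mice at day 15 (3.75, edgeR adjusted p = 0.034), and 0 were called in the other comparisons. The part of colonocytes, or of cells with these small intestine markers, in the level of *Slc15a1* was not tested.

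Beside *Slc15a3*, the summed macrophage markers (9 genes, led by *Lyz2* and C1qb) were at 1040 and 405 CPM (WT) and 402 and 547 CPM (null) at day 0, and at 1300 and 2110 CPM (WT) and 296 and 782 CPM (null) at day 15. C1qa (2.03, edgeR adjusted p = 0.00882), C1qb (1.58, edgeR adjusted p = 0.0477) and C1qc (1.93, edgeR adjusted p = 0.0165) rose in WT mice, and none of the 9 was called in null mice. C1qa (-2.16, edgeR adjusted p = 0.0137) and C1qb (-1.83, edgeR adjusted p = 0.0481) were lower in null than in WT mice at day 15. The summed neutrophil markers (6 genes, led by S100a9 and S100a8) were at 10.8 and 3.18 CPM (WT) and 3.94 and 3.59 CPM (null) at day 0, and at 109 and 461 CPM (WT) and 4.65 and 20.7 CPM (null) at day 15. Of the 6, 4 were called higher with treatment in WT mice (list median 6.03) and 0 in null mice (1.9). Between genotypes at day 15, 3 of the 6 were called lower in null mice (list median -4.58). In both lists the WT mouse with more *Slc15a3* at each day was also the one with more marker RNA. In null mice this did not hold throughout: at day 0 the mouse with more *Slc15a3* had fewer macrophage markers, and mouse 1 of day 15 held more *Slc15a3* than either untreated null mouse with fewer macrophage markers than both. The part of these cells in the level of *Slc15a3* was not tested.

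Beside *Slc15a2*, no marker list had its layout of 2 high and 2 nearly empty groups. The summed markers of enteric glia (6 genes, *Sox10* among them) were at 15.9 and 13.5 CPM (WT) and 21.1 and 23.0 CPM (null) at day 0, and at 17.5 and 16.2 CPM (WT) and 16.9 and 15.6 CPM (null) at day 15, with 0 of 6 called in each comparison. They were highest in the untreated null mice, as *Slc15a2* was, by less than 2-fold. The enteric neuron markers (6 genes, led by *Uchl1* and *Tubb3*) ran from 62.2 to 194 CPM and were highest in a null mouse at day 15, where *Slc15a2* was nearly absent. Markers of squamous epithelium, which a piece cut near the anus would hold, summed to 6.66 and 5.96 CPM (WT) and 9.36 and 8.62 CPM (null) at day 0, and to 9.66 and 16.3 CPM (WT) and 13.5 and 27.0 CPM (null) at day 15, over the 4 of 8 listed genes that were in the table. They were thus higher in each treated mouse than in each untreated one, with list medians of 1.24 in WT and 2.48 in null mice. *Krt13*, with 1 and 0 counts in the untreated mice of each genotype, rose in both (43 and 97 counts in WT mice, edgeR adjusted p = 0.0165; 9 and 33 counts in null mice, edgeR adjusted p = 0.0265) and *Krt14* in null mice (3.61, edgeR adjusted p = 0.0422). Their part in any change with treatment was not tested.

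Of the other lists, goblet cell markers summed to 18700 and 27100 CPM (WT) and 26700 and 21900 CPM (null) at day 0. At day 15 they summed to 7230 and 8880 CPM (WT) and 39800 and 20100 CPM (null), lowest in treated WT mice as *Slc15a1* was. Among them, *Zg16* (-2.60, edgeR adjusted p = 0.0228), *Clca1* (-3.11, edgeR adjusted p = 0.00882) and *Tff3* (-1.80, edgeR adjusted p = 0.0361) fell in WT mice. Of the smooth muscle markers, 5 of 6 genes fell in WT mice at day 15 (the list summed to 6900 and 9460 CPM at day 0 and 3460 and 2030 CPM at day 15), and none was called in null mice. The B and plasma cell markers, most of which was *Jchain*, summed to 3250 and 3590 CPM (WT) and 231 and 465 CPM (null) at day 15. *Jchain* was lower in null than in WT mice at that day (-4.24, edgeR adjusted p = 0.024), and so was *Mzb1* (-2.39, edgeR adjusted p = 0.0242). At day 0 the list already summed to less in null mice (592 and 1430 CPM) than in WT mice (1950 and 1710 CPM), with 0 of 6 called. In the null change 1 of the 6 was called, as lower, while the list median was 0.969. T cell markers summed to 33.2 and 12.7 CPM (WT) and 12.4 and 10.4 CPM (null) at day 0. At day 15 they summed to 75.2 and 120 CPM (WT) and 30.4 and 58.8 CPM (null). In each group the mouse with more *Slc15a3* also held more T cell marker RNA. The part of T cells in the level of *Slc15a3* was not tested. Of these markers, *Cd3e* rose in both genotypes. Fibroblast markers summed to 2140 and 602 CPM (WT) and 565 and 844 CPM (null) at day 0. At day 15 they summed to 1760 and 1720 CPM (WT) and 356 and 1120 CPM (null). *Dcn* fell in null mice, where 5 of the 6 fibroblast markers were not called and the list median was 0.038. Endothelial markers ran from 59.6 to 285 CPM and *Cdh5* was lower in null than in WT mice at day 15. Dendritic cell markers had 0 of 7 called in each comparison. None of these lists was near 0 in one pair of groups and high in the other, as *Slc15a2* was, and the part of any of these cell types in its level was not tested.

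**Figure D5:**
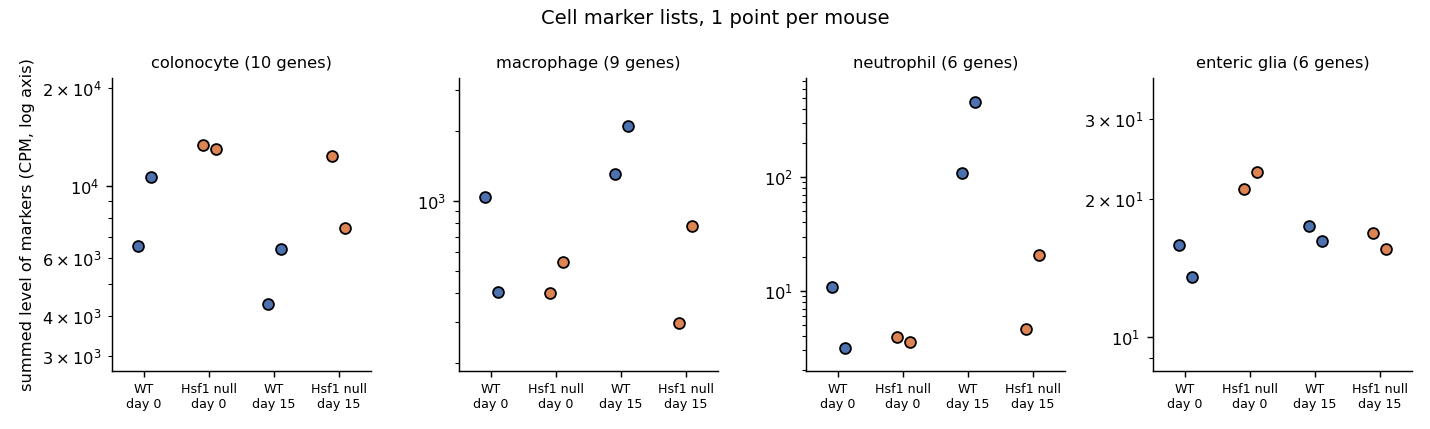
Summed level of the colonocyte, macrophage, neutrophil and enteric glia markers in CPM (vertical axis, logarithmic, a separate scale for each list) in the 4 groups; each point is 1 mouse (blue, WT; orange, *Hsf1* null). Macrophage and neutrophil markers were highest in the 2 WT mice at day 15, and the glia markers stayed between 13.5 and 23.0 CPM.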

How the data were processed

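RNA of the distal colon was measured in 8 mice, grouped by the genotype, day and mouse number in the sample labels. The submitters' processing notes name STAR, DESeq2 and mm10; the counting program and its annotation were not given in the sources used here. The authors deposited raw read counts per gene symbol, each gene with at least 6 counts in 1 sample or more, and a second table of these counts divided by a DESeq2 size factor per sample. That deposited score was used only to check the normalization (own size factors gave it to within a relative difference of 8.8e-10). No reads were analyzed here.

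Counts were analyzed with edgeR 4.0.16 in R 4.3.3: TMM scaling, 1 model of 4 groups over 8 samples, genes with a mean normalized count above 5, the quasi-likelihood test (prior degrees of freedom 5.97) and Benjamini-Hochberg adjustment over all 14371 genes of a comparison. The 2 mice of a group are separate animals by their titles, and p-values measure the spread between them. Lengths and positions come from GENCODE M21, in which 15276 of 15859 symbols matched. Likeness is Pearson's r of log2 CPM with a prior count of 1. The members, the 7 pathway lists and the 14 marker lists were chosen with earlier results of these data known. Genes named are the members, *Hsf1*, the 10 genes most like *Slc15a2* and 5 most like each other member, genes overlapping a member and those beside *Slc15a2*, up to 4 called genes per list, direction and comparison, and those of the 2 most abundant and the called genes of each marker list that the text needs. A pair of genes under this rule is not reported here.

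Alternatives tried were DESeq2 1.42.0, its size factors in edgeR, no filter and filterByExpr, the mouse number as a block, thinning to the smallest total, a model of only the groups compared, each mouse left out in turn, Spearman's rho and the longest transcript. A block with the WT day 0 mice exchanged, and leaving out both shallow libraries, were added after the data were seen. The fits were tested on simulated data first.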

Additional observations from a re-analysis of the deposited data

Results flagged for a closer look

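*Slc15a2* was marked because its 2 groups of treated mice moved in opposite directions from their untreated counterparts: both WT mice at day 15 lay above both WT mice at day 0, and both *Hsf1* null mice at day 15 lay below both null mice at day 0. The change in null mice minus the change in WT mice was -11.09 on the log2 scale. The gene was chosen for this difference, so the difference was not tested here. It rests on 7 reads in 1 of the 2 WT mice at day 0 and on 4 reads in the 2 null mice at day 15. With 2 mice a group, single mice that stand apart from their group could not be tested for.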

How the results depend on the processing

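No result of a member reversed its direction where it was called. The number of genes called moved with the tool and the mice: DESeq2 called 1737 genes in the WT change (edgeR 1112), 18 between genotypes at day 0 (0), 1197 at day 15 (455) and 130 in the difference between the changes (1). With only the groups compared, edgeR called 2 at day 0 and 6 at day 15. In the difference between changes, 2 genes were called without a filter and 3 after thinning. Leaving out 1 mouse, or both shallow day 0 libraries, gave 4 to 1331 genes in the WT change, 0 to 1889 in the null change, 0 to 17 at day 0, 12 to 871 at day 15 and 0 to 50 in the difference. *Slc15a1* ranged from -3.92 to -3.54 in the WT change, -2.76 to -1.10 in the null change, 1.41 to 3.06 between genotypes at day 15 and 0.99 to 2.65 in the difference. It was 2.48 at day 15, not called, with only the groups compared. The WT change of *Slc15a3* ranged from 1.68 to 4.19 and was 2.52, not called, with only the groups compared; DESeq2 called its null change (1.62) and its day 15 difference (-1.82). *Slc15a2* ranged from 4.28 to 9.67 in the WT change, from 5.197 to 10.57 at day 0, from -7.22 to -5.93 in the null change, from -6.31 to -5.02 at day 15 and from -16.06 to -10.62 in the difference, and thinning gave 6.01, 6.65 and -12.55. Mean RPKM over the 8 mice went from 46.7 to 70.7 (*Slc15a1*), 1.33 to 2.46 (*Slc15a2*) and 4.16 to 7.52 (*Slc15a4*) with the longest transcript, and by Spearman's rho 0, 2, 2 and 2 of the genes most like *Slc15a1*, *Slc15a2*, *Slc15a3* and *Slc15a4* stayed so. Where an alternative changed a call, the cause was not tested.

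Mouse numbers are shared by the groups but belong to different animals, and same-numbered mice deviated from their group means with correlations from -0.282 to 0.135. With the number as a block, the calls were 868 in the WT change, 1505 in the null change, 0 at day 0, 343 at day 15 and 2 in the difference, and *Slc15a3* in the WT change was 2.56 with an edgeR adjusted p of 0.0689. With the WT day 0 mice exchanged in the block, the calls were 1856, 2296, 0, 1314 and 54. The depth of mouse 2 in both day 0 groups, 2553348 and 2675976 counts, limits what can be said of a gene at a few CPM.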

Other observations

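Of the genes that overlap a member, *Glt1d1*, a glycosyltransferase gene that overlaps *Slc15a4* without a shared exon, had levels of 4.71 and 3.18 CPM (WT) and 5.09 and 5.03 CPM (null) at day 0. At day 15 they were 1.13 and 0.317 CPM (WT) and 3.88 and 1.87 CPM (null). Its log2 fold change was -2.43 in WT mice (edgeR adjusted p = 0.0621) and -0.82 in null mice (edgeR adjusted p = 0.411), and neither passed the test.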
